A study of Mus musculus with 22 samples.

Results

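Complement and coagulation proteins are made largely by the liver, and the transcripts of 39 of their genes were followed in mouse liver of both sexes after loss of the pituitary and a brief return of growth hormone (GH). The genes were picked by name from those that encode plasma proteins of the liver, through the RefSeq accession or gene name of each array probe. They comprised 19 of complement, 19 of coagulation and fibrinolysis, and Ahsg (fetuin-A, a plasma carrier of mineral), which belongs to neither. F9 (coagulation factor IX) had no probe that could be matched, so 38 of the 39 were measured, among 33767 gene names on the arrays and 26191 that were tested.

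All mice were of the ICR stock and given as 8 weeks old. M-Sham and F-Sham were male and female mice with sham surgery and a vehicle injection, although the sample labels call them untreated or intact. M-Hypox and F-Hypox were mice of each sex whose pituitary gland had been removed in adulthood (hypophysectomy), which takes away all pituitary hormones and not GH alone. M-Hypox+GH30 and F-Hypox+GH30 had also received 1 GH injection and were killed 30 min later, and M-Hypox+GH90 and F-Hypox+GH90 were killed 90 min after 1 injection. M-Hypox+2GH and F-Hypox+2GH received 2 injections 4 h apart and were killed 30 min after the second injection. Liver RNA was pooled from 2 to 5 mice per channel, and 2 pools, dyed in Alexa 555 and Alexa 647, were hybridized against each other on one array. There were 11 comparisons with 2 arrays each, the second with the dyes exchanged, so each comparison rests on n = 2 arrays. Every value below is a log2 ratio of the first-named group over the second, fitted over both arrays, and ± is its standard error (SE). A gene was called higher or lower at a limma adjusted p under 0.05 (Benjamini-Hochberg over all genes tested) with both arrays of the same sign.

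Complement is a chain of plasma proteases and binding proteins that marks microbes and damaged cells. Mannose-binding lectins and C1 start it, C3 is the point on which the starting routes meet, and C5, C6, C7, C8 and C9 assemble into the pore of the membrane attack complex. Coagulation is a second protease chain, begun by contact factors or by factor VII with tissue factor, which ends in thrombin cutting fibrinogen to fibrin, and plasmin later dissolves the clot. In rodents the male pituitary secretes GH in widely spaced pulses and the female pituitary more continuously, and many liver genes with different levels in males and females follow that pattern.

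The 250 bases before the start site are shown for the 6 members with the largest difference between the sexes in the effect of hypophysectomy, called or not, and for F11, which changed in both sexes. The sequences are RefSeq promoters on build GRCm38.p6, 5′ to 3′ on the gene's strand. Capitals mark matches on either strand to TTCNNNGAA, the core of STAT sites that GH signalling uses or to TTGCNNAA, a form of C/EBP sites. The sequences are C6 at chr15:4726960-4727209 (plus strand), Hc at chr2:35061413-35061662 (minus strand), C8a at chr4:104876399-104876648 (minus strand), C8b at chr4:104766067-104766316 (plus strand), C9 at chr15:6445096-6445345 (plus strand), Mbl2 at chr19:30232678-30232927 (plus strand) and F11 at chr8:45262032-45262281 (minus strand).
C6: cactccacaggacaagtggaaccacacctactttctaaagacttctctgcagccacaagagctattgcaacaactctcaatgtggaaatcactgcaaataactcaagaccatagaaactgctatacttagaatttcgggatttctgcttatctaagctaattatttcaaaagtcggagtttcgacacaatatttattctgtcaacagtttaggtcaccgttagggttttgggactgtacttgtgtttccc
Hc: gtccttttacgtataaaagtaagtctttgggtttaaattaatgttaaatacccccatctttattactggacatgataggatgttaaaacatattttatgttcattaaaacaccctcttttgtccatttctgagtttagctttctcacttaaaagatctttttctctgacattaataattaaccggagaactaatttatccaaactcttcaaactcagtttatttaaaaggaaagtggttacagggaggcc
C8a: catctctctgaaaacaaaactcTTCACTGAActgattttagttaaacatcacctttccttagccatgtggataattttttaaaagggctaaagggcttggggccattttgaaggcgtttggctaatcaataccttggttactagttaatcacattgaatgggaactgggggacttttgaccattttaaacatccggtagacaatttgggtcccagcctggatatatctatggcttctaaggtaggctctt
C8b: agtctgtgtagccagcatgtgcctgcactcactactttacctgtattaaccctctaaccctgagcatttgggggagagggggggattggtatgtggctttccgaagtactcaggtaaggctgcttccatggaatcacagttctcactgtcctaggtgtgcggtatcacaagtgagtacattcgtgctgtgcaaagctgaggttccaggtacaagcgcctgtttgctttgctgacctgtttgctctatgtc
C9: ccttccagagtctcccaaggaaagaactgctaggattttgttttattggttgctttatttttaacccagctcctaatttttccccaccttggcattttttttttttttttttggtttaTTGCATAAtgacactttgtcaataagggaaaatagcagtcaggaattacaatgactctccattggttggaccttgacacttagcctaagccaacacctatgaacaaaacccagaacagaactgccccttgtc
Mbl2: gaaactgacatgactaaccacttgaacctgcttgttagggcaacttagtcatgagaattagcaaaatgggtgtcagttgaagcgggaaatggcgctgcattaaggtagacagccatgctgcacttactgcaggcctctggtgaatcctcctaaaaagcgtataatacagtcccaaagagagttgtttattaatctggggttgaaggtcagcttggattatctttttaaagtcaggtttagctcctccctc
F11: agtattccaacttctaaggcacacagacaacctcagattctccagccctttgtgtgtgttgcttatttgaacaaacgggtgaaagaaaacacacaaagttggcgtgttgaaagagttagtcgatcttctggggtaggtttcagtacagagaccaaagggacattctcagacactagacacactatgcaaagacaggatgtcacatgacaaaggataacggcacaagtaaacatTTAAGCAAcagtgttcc
C8a and C8b lie on the same chromosome with start sites 110 kb apart, and C6 and C9 share a chromosome with start sites 1718 kb apart. C8a held TTCACTGAA from base 228 to base 220 before the start. C9 held TTGCATAA from base 132 to base 125, and F11 held TTAAGCAA, the reverse complement form, from base 17 to base 10. No match to either motif lay in the windows of C6, Hc, C8b and Mbl2, which says only that these letters were not in these bases. Forms of the STAT core with other spacing were not searched, and the C8b window holds one with a wider gap. The search therefore does not show that C8b lacks a STAT-type site. A promoter was given for 30 of the 39 members (32 promoters). TTCNNNGAA was found in 6 of the 30 (C8a, F9, Fga, Fgb, Masp2 and Pros1) and in 7.02% of all 32851 promoters of the same length. TTGCNNAA was found in 9 of the 30 (Ahsg, C1s1, C3, C9, F11, F9, Fga, Fgb and Klkb1) and in 9.56% of all promoters. CAAAGTCCA, part of a hepatocyte nuclear factor 4 site, was found in 0 of the 30 and in 0.384% of all promoters. The motifs do not overlap in the windows shown.

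The members are among the brightest features of a liver array, which bears on every ratio. All 38 were well above background in all 44 channels, and no member spot was marked as saturated. Only 3 saturated spots were present on the 22 arrays over all features. The scanner kept bright spots in range by also reading each array at a lower sensitivity, and 35 of the 38 chosen probes took their signal from that dimmer scan in at least 1 channel, compared with 7.02% of all probes. This held in all 44 channels for 17 members, of which 6 were complement and 10 coagulation genes, and in none for C6, Masp1 and F7. A dye effect passed the same adjusted p in 20 of the 38 members and in 11% of all genes. It was large for the brightest genes, with a fitted dye term of 0.84 for C3, 0.73 for Fgg and Ahsg and 0.71 for Fgb on the log2 scale. The fit removes the dye term from a comparison, but single-array values still hold it, and such genes often had opposite signs on the 2 arrays of a comparison. The same-sign rule was applied to these values, so a dye term larger than the fitted value could bar a call. Serpinc1, Ahsg and Fgg passed the adjusted p in some comparisons and were barred by the rule. It thus took calls from coagulation members and Ahsg, and none from complement, which bears on their counts below. With median centring in place of the loess curve that follows the dye bias of bright spots, 11 of the 54 calls reported below were kept. These were C6, C8b and C9 between the sham-operated sexes, C6, C8a, C8b, C9 and F11 after hypophysectomy of males, C8g and F11 in females, and the difference between the sexes for C8b. Of the 43 values that lost the call, 39 stayed within 1.5 times the reported log2 ratio and 0 reversed. The other 4 were C2, Cfi and F13b after hypophysectomy of males and F13b in females. In bulk liver, fewer cells of a type and less RNA per cell cannot be told apart. The pools of a group could differ between its 2 arrays, as with 4 and 3 mice for M-Sham, a group of 7. In M-Hypox+2GH over M-Hypox, both arrays had a pool of 5 M-Hypox mice from a group given as 6, so these pools shared mice. The labels do not say which mice entered a pool, so a p-value measures only the spread between arrays, which may in part be technical.

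In sham-operated mice, the pore-forming end of complement was the part most unlike between the sexes. Of its 6 measured members, C6, C8a, C8b and C9 were called higher in males, and Hc and C8g were not called. C6, the first protein to bind C5b, was 7.55 times higher in M-Sham than in F-Sham, with array values of 3.16 and 2.67 and a fitted value of 2.92 ± 0.28 (adjusted p = 1.8e-05, limma). C9, which polymerizes to form the pore, had 1.88 and 1.49 and a fitted value of 1.68 ± 0.27 (adjusted p = 0.0013, limma). Both arrays of C6 lay above all arrays of the other members.

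The chains of C8 did not move alike. C8a, the alpha chain, had 1.89 and 1.51 and a fitted value of 1.70 ± 0.49 (adjusted p = 0.049, limma). C8b, the beta chain, had 1.49 and 1.72 and a fitted value of 1.60 ± 0.18 (adjusted p = 8.9e-05, limma). C8g, the gamma chain, a lipocalin joined to the alpha chain, had 0.17 and -0.15, on either side of 0, with a 95% interval of the fitted value from -0.47 to 0.50. Hc, the mouse gene of C5, had 0.77 and 0.94 and a fitted value of 0.85 ± 0.30 (adjusted p = 0.11, limma).

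Upstream in complement, females had more of one lectin and males more of the C1 proteases. Mbl2, mannose-binding lectin C, had -0.86 and -0.99, so that both arrays showed less in males, and a fitted value of -0.93 ± 0.11 (adjusted p = 0.00012, limma). The other lectin, Mbl1, had -0.08 and 0.03. C1ra and C1s1, the proteases of the C1 complex, were called higher in males, with array values of 0.46 and 0.69 for C1ra (fitted 0.58 ± 0.16, adjusted p = 0.039, limma) and 0.55 and 0.32 for C1s1 (fitted 0.43 ± 0.08, adjusted p = 0.0054, limma). C3 was called lower in males at -0.84 ± 0.24 (adjusted p = 0.047, limma). Its arrays stood at -0.19 and -1.49, values that still held its dye term of 0.84. A second C3 probe gave -0.61 and -0.51, nearer to each other.

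Coagulation differed less between sham-operated males and females, and its called members were all lower in males. They were F7, the start of the tissue factor route (arrays -0.38 and -0.45, fitted -0.42 ± 0.07, adjusted p = 0.0029, limma), F13b, the carrier chain of the fibrin-crosslinking factor XIII (-0.37 and -0.27, fitted -0.32 ± 0.08), and F10, which makes thrombin (-0.21 and -0.33, fitted -0.27 ± 0.07). The fitted values of F2, F5, F7 and F10, the extrinsic and common factors, all lay below 0. Serpinc1 (antithrombin) and Ahsg passed the adjusted p at -0.26 and -0.63, but their arrays had opposite signs, so they were not called. Those array values still held dye terms of 0.54 for Serpinc1 and 0.73 for Ahsg. A second, dimmer Serpinc1 probe gave -0.21 and -0.13, of the same sign. Fibrinogen was close to 0 in the fit for Fga and Fgg, at -0.03 and -0.01, with intervals from -0.84 to 0.77 and from -0.46 to 0.43. Altogether 11 of 38 members were called, 6 higher and 5 lower in males, where 8.77% of all genes tested were called (5.03% higher and 3.74% lower). Complement gave 8 of 19 (6 higher, 2 lower) and coagulation 3 of 18 (0 higher, 3 lower; 7 of the 18 at an unadjusted p under 0.05).

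With 1 of the 2 arrays left out, C6, C8b and Mbl2 of these 11 were still called on either array alone. C9 lost its call without array 1 (1.51), as did F7 (-0.31). Without array 1 or array 2, in that order, the calls were lost at 0.67 and 0.48 for C1ra, 0.48 and 0.39 for C1s1, -0.63 and -1.06 for C3, 1.61 and 1.79 for C8a, -0.20 and -0.35 for F10, and -0.26 and -0.38 for F13b. C8a also lost its call under 5 other settings and C3 under 4, although their values stayed between 1.59 and 1.79 and between -1.06 and -0.56. Markers of skeletal muscle moved with this comparison. Their median over the 6 muscle markers was 2.09 on array 1 and 3.09 on array 2, although 0 of 6 were called, while hepatocyte markers had medians of 0.18 and -0.17 (0 of 5 called) and macrophage markers of -0.49 and -0.84 (2 of 6 called, both lower). Of the stellate cell markers 1 of 4 was called lower, and of the erythroid markers 1 of 2 higher (medians 1.03 and 0.84). Their part in the members' values was not tested.

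**Figure D1:**
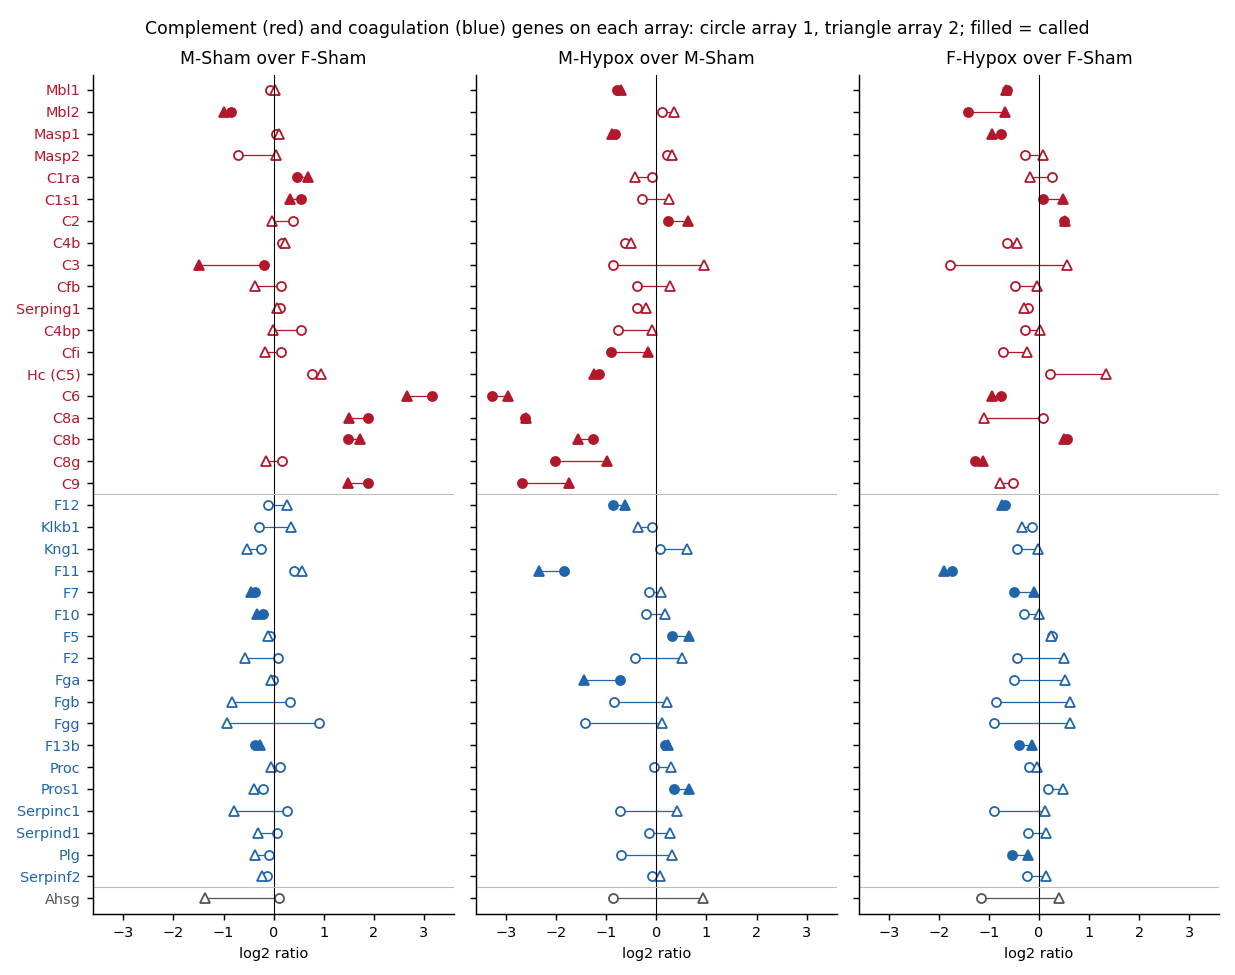
Log2 ratio of each of the 38 measured members (rows) on array 1 (circle) and array 2 (triangle) in 3 comparisons; filled symbols were called, red is complement, blue coagulation and fibrinolysis, grey Ahsg. C6, C8a, C8b and C9 lie far to the right between the sham-operated sexes and far to the left after hypophysectomy of males, while F11 lies far to the left after hypophysectomy of both sexes.

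Hypophysectomy of males lowered every measured member of the terminal pathway. All 6 were called lower in M-Hypox than in M-Sham. C6 fell most, with -3.27 and -2.96 on the arrays and a fitted value of -3.11 ± 0.28 (adjusted p = 3.3e-06, limma), an 8.65-fold lower level. C8a had -2.63 and -2.61 (fitted -2.62 ± 0.49, adjusted p = 0.0010, limma), C9 -2.69 and -1.75 (fitted -2.22 ± 0.27, adjusted p = 3.6e-05, limma), and C8b -1.27 and -1.56 (fitted -1.42 ± 0.18, adjusted p = 6.3e-05, limma). C8g had -2.03 and -0.99 (fitted -1.51 ± 0.22, adjusted p = 0.00019, limma). Hc had -1.14 and -1.25 (fitted -1.20 ± 0.30, adjusted p = 0.0077, limma). Every array value of these genes was below 0.

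Of the 6 recognition proteins and early proteases of complement, Masp1 and Mbl1 were called lower in males and 0 higher. Masp1, a protease carried by the lectins, had -0.82 and -0.89 (fitted -0.86 ± 0.10, adjusted p = 4e-05, limma), and its second probe gave -0.70 and -0.81. Mbl1 had -0.79 and -0.70 (fitted -0.74 ± 0.08, adjusted p = 1.9e-05, limma). Mbl2, which was higher in sham-operated females, had 0.12 and 0.35 and was not called. The 3 probes of Masp2 disagreed, with a mean over the arrays of 0.27 for the brightest, which was the one used. The others, annotated to a different transcript of the gene, had -0.84 and -0.69. No direction is therefore given for Masp2 as a whole. C2, the protease of the C3 convertase, rose by 0.43 ± 0.13, and Cfi, which cleaves C3b, fell by 0.54 ± 0.17. Cfb (factor B, the protease of the alternative route) had -0.39 and 0.28, Serping1 (the C1 inhibitor) -0.38 and -0.20, and C4bp (the C4b-binding protein) -0.77 and -0.09 (fitted -0.43 ± 0.19, adjusted p = 0.091, limma), and none of these was called in any comparison. C4b was not called (-0.63 and -0.50, fitted -0.56 ± 0.22), and its probe may not separate it from the nearly identical C4a.

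Of the 18 coagulation members, F11 and F12 of the contact and intrinsic route and the fibrinogen chain Fga were called lower in males. F11 (factor XI, which activates factor IX) had -1.84 and -2.35 (fitted -2.10 ± 0.25, adjusted p = 3.3e-05, limma), a 4.28-fold lower level. F12 (factor XII, which starts the contact route) had -0.87 and -0.63 (fitted -0.75 ± 0.11, adjusted p = 0.00024, limma). Of their partners, Klkb1 (prekallikrein) had -0.09 and -0.36, and Kng1 (high molecular weight kininogen) 0.08 and 0.61, neither called. Fga, the fibrinogen alpha chain, was called lower with -0.72 and -1.44 (fitted -1.08 ± 0.37). Fgg, the gamma chain, passed the adjusted p at -0.66 ± 0.21, but its arrays were -1.43 and 0.12, and Fgb, the beta chain, had -0.85 and 0.22. F5 (factor V, the cofactor that speeds thrombin formation) rose by 0.48 ± 0.09, Pros1 (protein S, an anticoagulant cofactor) by 0.51 ± 0.15 and F13b by 0.21 ± 0.08. F2 (prothrombin), F7, F10, Proc (protein C), Serpinc1, Serpind1 (heparin cofactor II), Serpinf2 (the plasmin inhibitor) and Plg (plasminogen) were not called, with fitted values from -0.19 for Plg to 0.13 for Proc.

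In all, 16 of 38 members were called in males, 12 lower and 4 higher, where 37.4% of all genes tested were called (18.6% lower and 18.8% higher). Complement gave 10 of 19 (9 lower, 1 higher), and coagulation 6 of 18 (3 lower, 3 higher). Without array 2 the calls of C2 (0.24), Hc (-0.78), F5 (0.27) and Fga (-0.37) were lost. Without array 1 or array 2, in that order, the calls were lost at -0.41 and -0.66 for Cfi, 0.24 and 0.17 for F13b, and 0.61 and 0.41 for Pros1. F13b also lost its call under 4 other settings. The count was 9 without array 2, all lower. Muscle markers had medians of -2.34 and -3.15 (4 of 6 called lower), lymphocyte markers of 1.16 and 1.01 (3 of 4 called higher), and hepatocyte markers of -0.46 and -0.06 (2 of 5 called lower). Endothelial markers had medians of 0.21 and 0.13 (3 of 6 called higher, 1 lower), stellate markers of 0.21 and 0.19 (1 of 4 called higher) and erythroid markers of -1.19 and -0.45 (1 of 2 called lower). Their part in the members' values was not tested. M-Sham stands in both this comparison and the one between the sham-operated sexes, so the 2 sets of values share that group.

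Hypophysectomy of females lowered F11, F12, Masp1, Mbl1 and C8g, and also Mbl2. F11 had -1.74 and -1.89 (fitted -1.82 ± 0.25, adjusted p = 0.00017, limma), and F12 -0.67 and -0.74 (fitted -0.70 ± 0.11, adjusted p = 0.00061, limma). Masp1 had -0.75 and -0.94 (fitted -0.84 ± 0.10), Mbl1 -0.64 and -0.65 (fitted -0.65 ± 0.08) and C8g -1.28 and -1.11 (fitted -1.19 ± 0.22). Mbl2 had -1.42 and -0.68 (fitted -1.05 ± 0.11, adjusted p = 2.4e-05, limma). These 6 genes lay below 0 on both arrays.

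Of the other 5 members of the terminal pathway, 1 was called lower and 1 higher in females. C6 was called lower, with -0.75 and -0.94 (fitted -0.84 ± 0.28, adjusted p = 0.035, limma). C8b was called higher, with 0.56 and 0.50 (fitted 0.53 ± 0.18, adjusted p = 0.042, limma). C8a (0.07 and -1.09), C9 (-0.52 and -0.77) and Hc (0.22 and 1.34) were not called. C2 rose by 0.51 ± 0.13 and C1s1 by 0.27 ± 0.08, and Plg fell by 0.38 ± 0.13, F7 by 0.30 ± 0.07 and F13b by 0.26 ± 0.08. All 3 fibrinogen chains had arrays of opposite sign, and Serpinc1 and Ahsg again passed the adjusted p (-0.40 and -0.38) with arrays of opposite sign. The dimmer Serpinc1 probe gave -0.41 and -0.34 here, of the same sign.

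In females 13 of 38 members were called, 10 lower and 3 higher, where 31.1% of all genes tested were called (16.5% lower and 14.6% higher). Complement gave 8 of 19 (5 lower, 3 higher) and coagulation 5 of 18 (5 lower, 0 higher). F7 (-0.23) and F13b (-0.12) lost their calls without array 1, and Plg (-0.18) without array 2. Without array 1 or array 2, in that order, the calls were lost at 0.32 and 0.22 for C1s1, 0.49 and 0.52 for C2, -1.05 and -0.64 for C6, and 0.53 and 0.52 for C8b. The count was 7 without array 1, all lower. Muscle markers were level here, with medians of 0.04 and -0.01 (0 of 6 called). Lymphocyte markers had medians of 0.57 and 0.92 (3 of 4 called higher) and hepatocyte markers of -0.77 and 0.23 (2 of 5 called lower, 1 higher). Endothelial markers had medians of 0.17 and -0.02 (1 of 6 called higher, 2 lower) and erythroid markers of -0.07 and 0.31 (1 of 2 called higher, 1 lower), and 1 of 6 macrophage and 1 of 5 platelet markers were called lower. Their part in the members' values was not tested.

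The difference between the sexes in the effect of hypophysectomy was tested as a contrast of the fit. It was called for 6 of 38 members (2 with the male value higher, 4 with it lower), where 6.74% of all genes tested were called (3.22% and 3.52% in those directions). C6 differed by -2.27 ± 0.39 (adjusted p = 0.0048, limma), with a larger fall in males. Hc differed by -1.97 ± 0.43 (adjusted p = 0.018, limma), from -1.20 in males and 0.78 in females. C8b differed by -1.95 ± 0.26 (adjusted p = 0.00073, limma), from -1.42 in males and 0.53 in females. C9 differed by -1.58 ± 0.38 (adjusted p = 0.027, limma).

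Mbl2 went the other way and differed by 1.28 ± 0.15 (adjusted p = 0.00036, limma), having fallen in females. F13b differed by 0.47 ± 0.11 (adjusted p = 0.023, limma), from 0.21 in males and -0.26 in females. C8a differed by -2.11 ± 0.69 and missed the threshold (adjusted p = 0.092, limma), with an interval from -3.61 to -0.61. No difference was called for F11 (-0.28, interval -1.04 to 0.48), C8g (-0.32, -1.01 to 0.36), Masp1 (-0.01, -0.33 to 0.31) or Mbl1 (-0.10). Of the 38 members, 6 were called lower in both sexes (C6, C8g, F11, F12, Masp1 and Mbl1), 1 higher in both (C2) and 2 in opposite directions (C8b and F13b), and 18 were called in neither. Of all genes tested, 37.4% were called in males and 31.1% in females. Their overlap between the sexes was not counted, so the overlap of members is not read as a trait of these genes.

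The call for the difference was lost for C6 without array 1 of the male comparison (-2.19, adjusted p = 0.05, limma). It was lost for Hc without array 2 of the male (-1.56) or of the female comparison (-1.71). It was lost for C9 without array 1 of the male comparison (-1.10) or array 1 (-1.39) or 2 (-1.76) of the female comparison, and for F13b without array 1 (0.50) or 2 (0.44) of the male or array 1 of the female comparison (0.33). C8b and Mbl2 kept theirs without any of the 4 arrays. All arrays of the male comparison were scanned on the first scan day and all of the female comparison on the third, so scan day and sex cannot be told apart in this contrast.

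**Figure D2:**
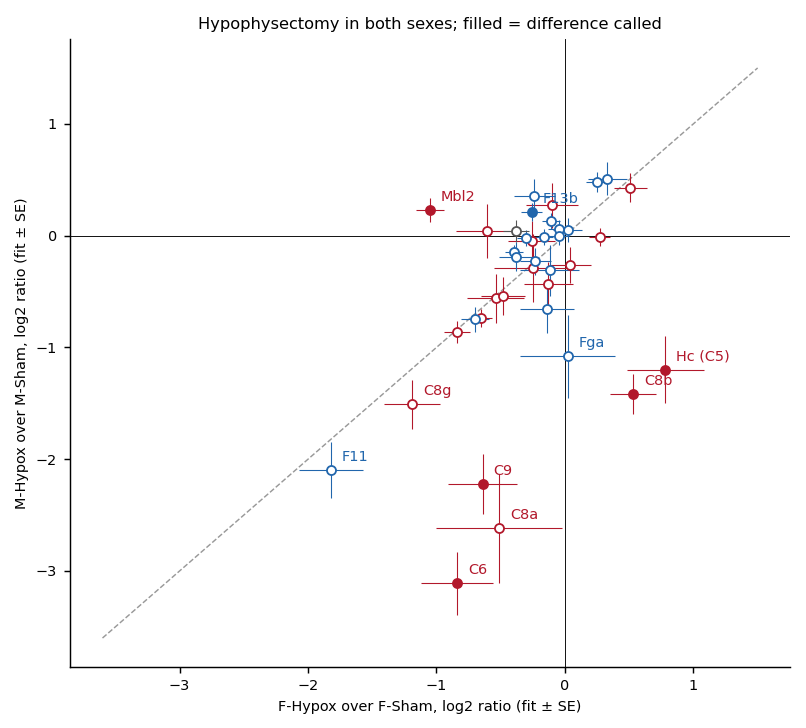
Fitted log2 ratio after hypophysectomy in males (vertical) against females (horizontal) for each member, with SE bars; the dashed line marks equal effects, red is complement, blue coagulation and fibrinolysis, grey Ahsg, and filled symbols had a called difference. C6, C9, C8b and Hc lie below the line, Mbl2 and F13b above it, and F11 close to it.

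Other arrays, which paired male with female livers directly, gave the sex differences themselves. Between M-Hypox and F-Hypox no member was called (0 of 38, and 9 at an unadjusted p under 0.05, limma), where 1.63% of all genes tested were called. A loop model, which uses all arrays that hold a group, called 7 members there (3 higher and 4 lower in males) and 13 for the difference in the effect of hypophysectomy. The share of all genes that the loop model called is not given, so these counts have no baseline. C6, at 2.92 between sham-operated males and females, was at 0.58 between hypophysectomized ones (arrays 0.74 and 0.42, interval -0.02 to 1.18). C8b went from 1.60 to -0.21 (arrays -0.20 and -0.23), C9 from 1.68 to 0.03 (arrays -0.33 and 0.39) and C8a from 1.70 to -0.47 (arrays -0.92 and -0.02). Mbl2 went from -0.93 to 0.42 (arrays 0.67 and 0.16), and Hc from 0.85 to -0.86 (arrays -0.16 and -1.55).

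The sex difference in Hypox minus that in sham was -2.34 for C6 (adjusted p = 0.0040), -1.82 for C8b (adjusted p = 0.0013), -1.71 for Hc (adjusted p = 0.036), -1.65 for C9 (adjusted p = 0.023), 1.34 for Mbl2 (adjusted p = 0.00024) and 0.52 for F13b (adjusted p = 0.015), all by limma. C8a missed the threshold again at -2.17 (adjusted p = 0.094, limma). For each of these 6 called genes, this value and the one from the Hypox over Sham arrays differed by less than the SE of either. The arrays differ between the routes, but the 4 RNA groups are the same and pools may be shared. The arrays of M-Hypox against F-Hypox were scanned on the fourth scan day and those of the sham-operated males and females on the first.

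**Figure D3:**
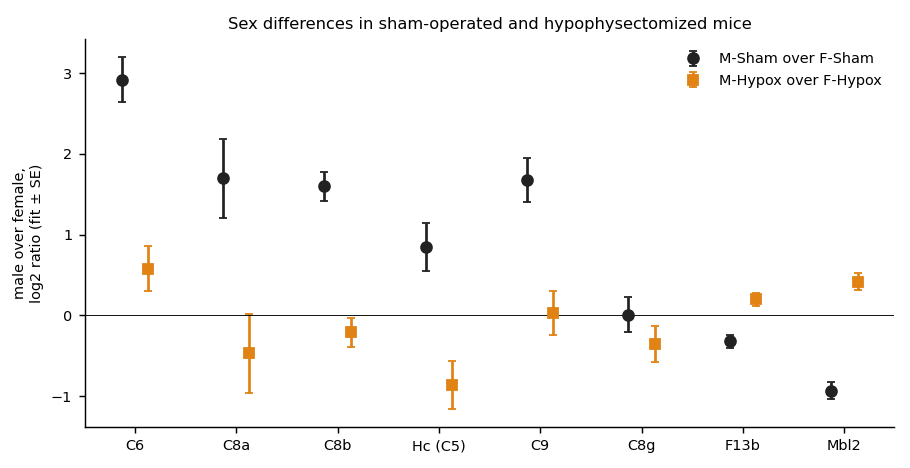
Fitted male over female log2 ratio with SE bars for 8 members, from the arrays that paired the sham-operated sexes (black circles) and those that paired the hypophysectomized sexes (orange squares). C6, C8a, C8b and C9 stand at 1.60 or more in sham-operated mice and at 0.58 or less after hypophysectomy. The fitted values of C8a, C8b, Hc, C8g, Mbl2 and F13b lie on opposite sides of 0 in the 2 settings. No member was called between the hypophysectomized sexes, and C8g stood at 0.01 ± 0.22 between the sham-operated ones, so opposite sides are not read as a reversal.

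GH given to hypophysectomized males moved few members within the times studied. After 30 min, 1 of 38 was called (Plg, 0.60 ± 0.13, adjusted p = 0.031, limma), where 2.5% of all genes tested were called, and its arrays were 0.11 and 1.1. C8g, with 0.95 and 0.71 (fitted 0.83 ± 0.22), missed the threshold (adjusted p = 0.068, limma). C9, with 0.92 and 0.37 (fitted 0.65 ± 0.27), was further from it (adjusted p = 0.22, limma). After 90 min, 1 of 38 was called (Fgg, 0.86 ± 0.21, adjusted p = 0.032, limma), where 4.98% of all genes tested were called, and its arrays were 0.09 and 1.63. Fga had 1.01 and 1.52 (fitted 1.27 ± 0.37, adjusted p = 0.075, limma), and Fgb -0.02 and 1.67 (fitted 0.83 ± 0.23, adjusted p = 0.061, limma). The probes of C3 disagreed at 90 min, with -0.99 and 0.93 for the brighter one, which was used, and -0.98 and -1.09 for the other, so no direction is given for C3 there. The 3 chains of fibrinogen, the clot's building block, thus had fitted values of 0.83 to 1.27 with 1 called. Plg without array 1 or 2 lost its call at 0.78 and 0.43, and Fgg at 0.91 and 0.81. Both calls were also lost with the scanner software's ratios and after median centring. Muscle markers had medians of 3.57 and -0.02 at 30 min and of 1.75 and 0 at 90 min (0 of 6 called at either time), and neutrophil markers of 2.05 and 1.94 at 90 min (0 of 3 called). Their part in the members' values was not tested.

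After 2 injections, 6 of 38 members were called in males, where 19.3% of all genes tested were called (10.6% higher and 8.7% lower). Of the 6, 1 was higher and 5 lower. C8b rose, with 0.88 and 0.62 (fitted 0.75 ± 0.18, adjusted p = 0.011, limma). C6 had 1.01 and 0.66 (fitted 0.84 ± 0.28, adjusted p = 0.052, limma), which is to be set beside the -3.11 after hypophysectomy. C8a had 0.51 and 0.69, and C9 had -0.26 and -0.09. Klkb1 fell, with -0.75 and -0.52 (fitted -0.64 ± 0.12, adjusted p = 0.0024, limma), and smaller falls were called for C1s1 (-0.42 and -0.23, fitted -0.33 ± 0.08), F7 (-0.43 and -0.09, fitted -0.26 ± 0.07), F13b (-0.28 and -0.22, fitted -0.25 ± 0.08) and Proc (-0.31 and -0.15, fitted -0.23 ± 0.07). F11 stayed near its hypophysectomized level, with -0.28 and -0.08 (interval -0.72 to 0.36).

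Klkb1 lost its call without array 1 (-0.33). Without array 1 or 2 the calls were lost at 0.64 and 0.86 for C8b, -0.40 and -0.26 for C1s1, -0.21 and -0.31 for F7, -0.22 and -0.28 for F13b and -0.23 and -0.22 for Proc. On array 2 of this comparison, muscle markers had a median of 3.29 and pancreatic acinar markers 3.64 (4 of 4 called higher over both arrays), and on array 1 the medians were 0.04 and 0.61. Of the other markers, 1 of 5 of hepatocytes was called higher, and 1 of 6 endothelial and 1 of 4 stellate markers were called lower. Their part in the members' values was not tested.

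In hypophysectomized females, GH moved no member past the threshold. At 30 min, 0 of 38 members were called (2 at an unadjusted p under 0.05, limma), where 0.0191% of all genes tested were called. At 90 min, 0 of 38 were called (9 at an unadjusted p under 0.05, limma), where 3.17% were. After 2 injections, 0 of 38 were called (8 at an unadjusted p under 0.05, limma, and 1 called by the loop model), where 8.43% were. Fgb at 90 min, with 0.26 and 1.29 (fitted 0.77 ± 0.23, adjusted p = 0.10, limma), and Plg, with 0.28 and 0.63 (fitted 0.45 ± 0.13, adjusted p = 0.080, limma), came nearest. Klkb1 after 2 injections had -0.22 and -0.59 (fitted -0.40 ± 0.12, adjusted p = 0.060, limma). C6 had 0.24 and -0.19 after 2 injections, with an interval from -0.57 to 0.63. Muscle markers had medians of -3.80 and -3.42 in that comparison (5 of 6 called lower). There 1 of 6 endothelial and 1 of 4 stellate markers were also called lower. At 90 min, 1 of 5 hepatocyte markers was called lower and 1 of 6 endothelial markers higher. The part of these markers in the members' values was not tested.

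The difference between the sexes in the response to GH was called for 0 of 38 members at 30 min (0.00764% of all genes tested, 3 members at an unadjusted p under 0.05), at 90 min (0.00764%, 4 members) and after 2 injections (1.97%, 1 member), all by limma. For Fga at 90 min the difference was 1.54 ± 0.53 (adjusted p = 0.34, limma), with an interval from 0.40 to 2.69. For C6 after 2 injections it was 0.81 ± 0.39 (adjusted p = 0.32, limma), with an interval from -0.04 to 1.66. Between M-Hypox+GH30 and F-Hypox+GH30, 0 of 38 members were called (5 at an unadjusted p under 0.05, limma), where 0.504% of all genes tested were called. Mbl1 came nearest there, with -0.52 and -0.28 (fitted -0.40 ± 0.08, adjusted p = 0.056, limma).

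**Figure D4:**
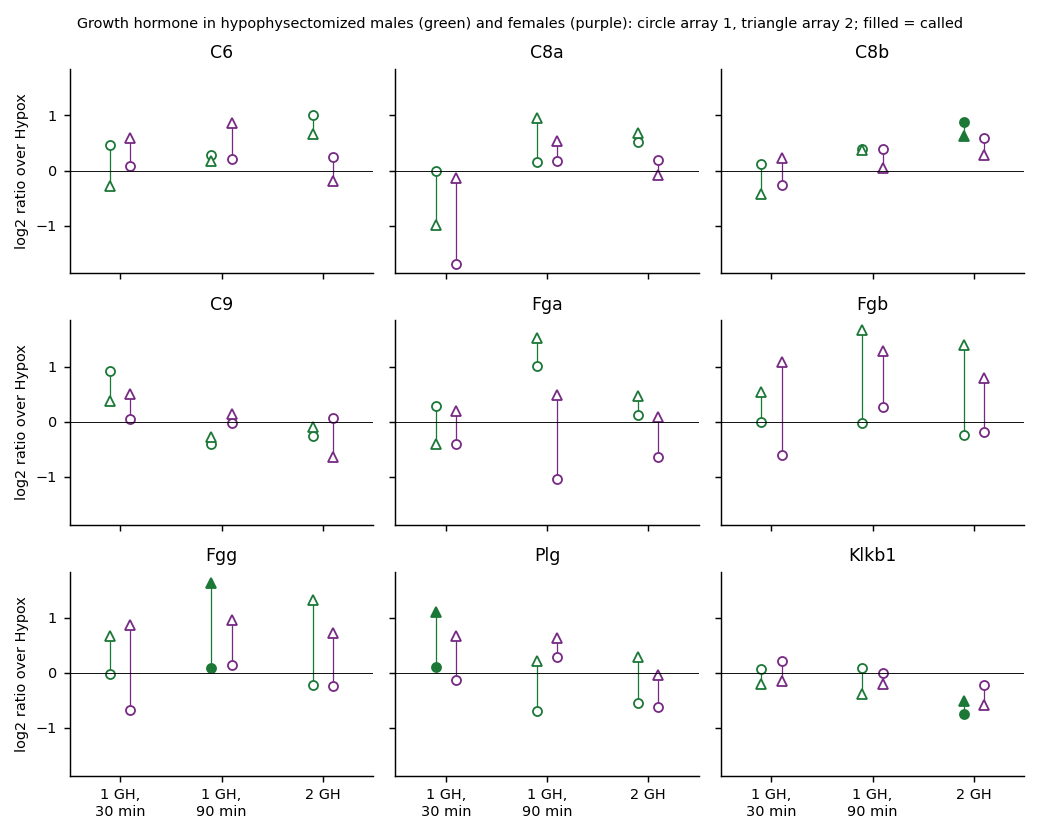
Log2 ratio over hypophysectomized mice of the same sex for 9 members at 3 GH schedules, on array 1 (circle) and array 2 (triangle), with males in green and females in purple; filled symbols were called. C8b and Klkb1 were called after 2 injections in males, and Plg at 30 min and Fgg at 90 min in males. The arrays of Fgb and Fgg lie far apart, in values that still hold their dye terms of 0.71 and 0.73.

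Set side by side, complement and coagulation had different medians on both arrays of the comparisons that held M-Sham, as a description with no test. Between M-Sham and F-Sham the median over complement was 0.17 and over coagulation -0.21, a gap of 0.38 (0.26 and 0.38 on the arrays). Between M-Hypox and M-Sham the medians were -0.54 and -0.02, a gap of -0.52 (-0.61 and -0.66 on the arrays). The 6 terminal members enter both complement medians, with fitted values of 0.01 to 2.92 between M-Sham and F-Sham. Between M-Hypox and M-Sham theirs ran from -3.11 to -1.20. No median was taken without them, so the gaps are not a trait of complement as a whole. The pooled SD of the gap between the arrays of a comparison was 0.18, given for scale and not as a test. Between F-Hypox and F-Sham the medians were -0.48 and -0.15, a gap of -0.33, but the arrays gave -0.03 and -0.29. In the comparisons with GH the gap lay between -0.07 and 0.19, and between M-Hypox and F-Hypox it was 0.10 with arrays of -0.12 and 0.39. The median of all genes was between -0.01 and 0.01 on every array.

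**Figure D5:**
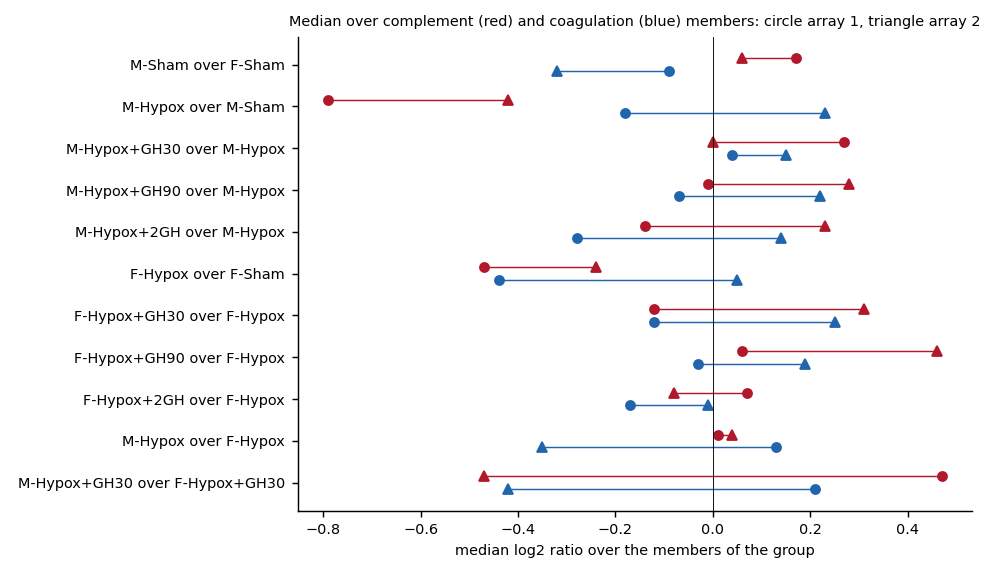
Median log2 ratio over the complement members (red) and the coagulation and fibrinolysis members (blue) on array 1 (circle) and array 2 (triangle) in each of the 11 comparisons. Complement lies left of coagulation on both arrays after hypophysectomy of males and right of it between the sham-operated sexes, and in the other 9 comparisons the arrays of both groups overlap.

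The other genes of these pathways are set against the shares of all genes called, which were 8.77% in M-Sham over F-Sham, 37.4% after hypophysectomy of males and 31.1% in females. Of 26 other complement genes tested, 2 were called higher and 2 lower in M-Sham than in F-Sham, 2 higher and 5 lower after hypophysectomy of males, and 1 higher and 3 lower in females. Crp, the pentraxin that can start the classical route, fell in males by 0.85 ± 0.15 and in females by 1.57 ± 0.15. Cfhr2, a factor H-related gene, was higher in M-Sham than in F-Sham (0.36 ± 0.09) and fell after hypophysectomy in males (-0.58 ± 0.09) and in females (-0.43 ± 0.09), although its arrays spread widely (-0.97 and -0.19 in males). Vsig4, a macrophage complement receptor, was lower in M-Sham (-0.61 ± 0.16), as was Colec10, a liver collectin (-0.51 ± 0.13). Vsig4 is also one of the 6 macrophage markers tested, which ran from -0.84 to -0.60 in that comparison.

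Of 32 other coagulation genes tested, 4 were called higher and 1 lower in M-Sham than in F-Sham, 3 higher and 9 lower after hypophysectomy of males, and 4 higher and 8 lower in females. Serpina5, the protein C inhibitor, was higher in M-Sham than in F-Sham (1.27 and 0.86, fitted 1.07 ± 0.12) and fell in hypophysectomized males (-1.95 and -1.63, fitted -1.79 ± 0.12). Serpine2, a thrombin-inhibiting serpin, went the same way at 1.20 ± 0.23 and -1.44 ± 0.23, as did Mug1, a protease inhibitor of the macroglobulin family, at 1.28 ± 0.14 and -1.16 ± 0.14. Ggcx, the carboxylase that vitamin K-dependent factors need, fell in females by 0.64 ± 0.10.

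Of 23 acute phase genes tested, 1 was called higher and 4 lower in M-Sham than in F-Sham, 3 higher and 3 lower after hypophysectomy of males, and 2 higher and 4 lower in females. Hamp2, a hepcidin gene, was lower in M-Sham (-3.00 ± 0.36) and rose after hypophysectomy by 3.41 ± 0.36 in males and 1.76 ± 0.36 in females. Il1r1, an interleukin-1 receptor, fell by 1.99 ± 0.17 in males and 1.23 ± 0.17 in females. Of 24 other plasma protein genes tested, 0 were called higher and 5 lower in M-Sham than in F-Sham (limma), 3 higher and 6 lower after hypophysectomy of males, and 3 higher and 9 lower in females, with Apoa4, an apolipoprotein, at -2.12 ± 0.09 in males and -2.64 ± 0.09 in females.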

How the data were processed

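Members and gene lists were chosen with earlier results of these data known. Per the file headers, the scans were read by the submitters with Agilent Feature Extraction from extended-range scans at a high and a low sensitivity, and the deposited mean and background intensity of each spot was used here. Each column of the deposited value table (medians -0.02 to 0) was a log2 ratio equal to 1 scanner file's ratio in 100% of spots within rounding, turned as the labels' dyes turn that file. In 16 of 22 columns that file was the other replicate's, and array numbers here follow the scanner files. The Agilent software's log10 ratios, as deposited, served as an alternative. Intensities were corrected with normexp (offset 50) and loess-normalized within each array in limma 3.58.1 (R 4.3.3), leaving out control spots and outlier flags. Ratios were turned by the dyes in the labels. Probes (41174) were named through RefSeq accessions where these matched (22072, the others keeping the name in the file), the brightest probe stood for a gene, and genes well above background in a channel on both arrays of a comparison were tested. One fit over 22 arrays held 11 comparisons and a dye term (10 residual degrees of freedom). The number of arrays limits the precision. Intervals are at 95%. The code was tested on simulated data. For one comparison the series description and the sample labels name different second groups (M-Hypox and F-Hypox for F-Hypox+2GH). The labels were followed, and the median of 4 Y-linked genes followed the labelled sexes on 22 of 22 arrays. All 39 members were named, with array values for up to 10 called members per comparison and for members with a called sex difference. Other genes were named by size, up to 3 per direction. A gene that this rule named is not reported here. Alternatives were median centring, scanner ratios, other filters and probes, slide or replicate block, a loop model and leaving out arrays.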

Additional observations from a re-analysis of the deposited data

Results flagged for a closer look

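For 6 members the effect of hypophysectomy differed between males and females by the contrast of the limma fit. The male minus female difference on the log2 scale was -2.27 for C6, -1.97 for Hc, -1.95 for C8b and -1.58 for C9, with a lower value in males. It was 1.28 for Mbl2 and 0.47 for F13b, with a higher value in males. All male arrays of this contrast were scanned on another day than the female ones, so scan day and sex cannot be told apart.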

How the results depend on the processing

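Over the 54 called member values, 668 values under alternatives kept the call in 546 cases, lost it in 122 and reversed the direction in 0. Of the 54, 11 kept the call under all alternatives other than leaving out an array and 10 under all of them. Median centring in place of loess kept 11 of 54 and gave 3 called members in M-Sham over F-Sham, 5 in M-Hypox over M-Sham, 2 in F-Hypox over F-Sham, 1 for the Hypox difference between the sexes, and 0 in M-Hypox+GH30, M-Hypox+GH90 and M-Hypox+2GH over M-Hypox. The scanner software's ratios kept 44 of 54 and gave 0 called members at GH30 and at GH90 in males. Using only arrays without sham mice gave 2 and 0 there. The loop model, which shares group means over all arrays, kept all 54 and gave 2 called members at GH90 in males, 1 in F-Hypox+2GH, 7 in M-Hypox over F-Hypox, 2 in M-Hypox+GH30 over F-Hypox+GH30, 13 for the Hypox difference and 1 for the GH30 difference. The probe least often read from the dimmer scan, an alternative chosen after seeing the data, gave 2 at GH90 in males. Slide as a random block kept 52 and gave 1 called member in M-Hypox+GH30 over F-Hypox+GH30. Same-numbered arrays often shared a slide, and the labels do not say whether a number marks a shared pool. Residuals of same-numbered arrays correlated from -0.359 to 0.871, above 0.1 in 20 of 55 pairs of comparisons. Arrays of different comparisons may therefore not be independent. The main fit took them as independent and did not pair them, so its p-values may be too small. The replicate block kept 52 and gave 1 called member in each of F-Hypox+2GH over F-Hypox, M-Hypox over F-Hypox and M-Hypox+GH30 over F-Hypox+GH30. With an array left out, called members numbered 4 to 5 in M-Sham over F-Sham, 9 to 13 in M-Hypox over M-Sham, 7 to 9 in F-Hypox over F-Sham, 0 to 1 in M-Hypox+2GH over M-Hypox, 0 at GH30 and GH90 in males, and 3 to 4 for the Hypox difference. The complement minus coagulation median then ran from -0.27 to 0.28 in M-Hypox+GH30 over M-Hypox, -0.29 to -0.13 in F-Hypox over F-Sham, -0.08 to 0.26 in M-Hypox over F-Hypox and -0.17 to 0.42 in M-Hypox+GH30 over F-Hypox+GH30. The causes were not tested, except that a left-out array leaves fewer samples. The shares of all genes called under these settings, here and above, are not given. The counts of members under them thus have no baseline.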
